A study of Rattus norvegicus with 8 samples.

Results

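The genes described here are 10 components of the NF-kappaB pathway: both receptors for tumour necrosis factor (Tnfrsf1a and Tnfrsf1b), the kinase Ikbkb, the inhibitors Nfkbia and Nfkbib, the IkappaB-like regulator Bcl3, and the transcription factor subunits Nfkb1, Nfkb2, Rela and Relb. They were found by gene name among the probes of a rat expression array. Of the 10 genes, 9 were measured, by 13 of the 41012 probes outside controls (35508 gene names in all), and all 9 passed the filter on dim probes. Bcl3 was listed on the array under a provisional name (LOC680611) and was identified through its gene ID in RefSeq. Relb had no probe under its name, and 1 probe that the array describes as similar to it is given separately and is not counted. The set was chosen by earlier results of the same occlusion and control comparison, so the differences between the groups are a description of these animals and carry no test.

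Receptors of the TNF family, when bound by their ligands, recruit adaptor proteins that activate the IkappaB kinase complex. This kinase marks IkappaB inhibitors for destruction, which frees dimers of NF-kappaB subunits to enter the nucleus and switch on genes of inflammation, cell survival and adhesion. Several components, among them Nfkbia, Nfkb1, Nfkb2 and Bcl3, are themselves known NF-kappaB target genes, so that the pathway feeds back on its own components.

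RNA came from the medial thalamus of 8 male Sprague-Dawley rats (body weight 277 g, age not stated in the labels), all under urethane and all carrying an inflatable cuff on the trachea. In the occlusion group (4 rats) the cuff blocked 2 to 4 breaths at a time, each block was followed by at least 15 free breaths, and this went on for 10 min before the brain was taken at once. In the surgical control group (4 rats) the cuff was left uninflated, and the brains were taken when 70 min had passed since setup. How long occluded rats spent between setup and removal was not stated in the labels, so time under anaesthesia and the occlusions cannot be told apart. Each rat was hybridised once, in Cy5, against a pool of all 8 rats in Cy3 with no dye swap. Each value is thus the log2 of 1 rat over that pool. Levels of different probes cannot be set against each other. The arrays lay on 2 slides with 2 rats of each group apiece. The share of spots well above background in the Cy5 channel was 68.3% to 80.2%. It was lowest for control 1, which also had the most outlier spots (853, against 136 to 423 on the other arrays).

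By its region markers, 1 control rat stood apart from the other 7 animals. In control 3, 10 of 12 listed markers of thalamic relay neurons were measured and averaged -1.86 on the log2 scale, against -0.30 to 0.20 in the other rats. Its cortical neuron markers (9 of 11 measured) averaged 1.63, against -1.04 to -0.36 elsewhere, and its markers of meninges and fibroblasts (10 of 10) averaged 0.92, against -0.46 to 0.09. Its median correlation with the other arrays was -0.12. The differences of the main genes, and of other genes where this rat turned the sign or moved the value by over 1.5 times, are therefore given without it as well.

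The promoters of the pathway components differ in whether they carry the letters of the NF-kappaB binding site. RefSeq promoter sequences (GRCr8 assembly, 250 bases before to 50 after the gene's start) were available for 8 of the 10 genes. The decameric kappaB consensus was searched on both strands. It was found once each in Nfkbia, Nfkb1, Nfkb2 and Bcl3, and in none of Tnfrsf1a, Tnfrsf1b, Nfkbib and Rela. Of 33469 rat promoters of the same length, 1400 (4.18%) held a match. The windows of the members with a match are printed here because they set Bcl3 beside the known self-regulated genes. They run 5′ to 3′ on the gene's strand, with the match in capitals, and are followed by the 50 bases just before the start of Tnfrsf1a, which hold no match.
Nfkbia: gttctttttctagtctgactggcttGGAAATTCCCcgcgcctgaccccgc
Nfkb1: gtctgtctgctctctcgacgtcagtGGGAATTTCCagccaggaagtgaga
Nfkb2: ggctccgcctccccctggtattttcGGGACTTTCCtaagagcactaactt
Bcl3: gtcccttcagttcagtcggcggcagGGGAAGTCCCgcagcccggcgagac
Tnfrsf1a: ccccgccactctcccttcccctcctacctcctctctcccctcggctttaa
The Nfkbia window lies at chr6:78597079-78597128 on the minus strand of GRCr8, with the match starting at position -31 from the start of the gene. The Nfkb1 window lies at chr2:226805435-226805484 on the minus strand, and its match starts at position 4, just inside the gene. The Nfkb2 window lies at chr1:255108329-255108378 on the plus strand, with the match at -20. The Bcl3 window lies at chr1:88613569-88613618 on the minus strand, with the match at -38. The Tnfrsf1a window lies at chr4:159837069-159837118 on the plus strand. A match is a run of letters and does not show binding, and its absence says only that these letters are not in this window.

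Across the 9 measured genes, Bcl3 and Tnfrsf1a had the largest differences between occluded and control rats, and the other 7 had differences no larger than 0.10 on the log2 scale in either direction. In the fit over all 26981 genes (limma, Benjamini-Hochberg), 0 genes passed an adjusted p of 0.05, with 842 genes at an unadjusted p under 0.05. The share called was 0%, and 0 of the 9 members were called. By groups that did not overlap, 2.46% of the 26172 genes measured on all arrays were separated, and among the 9 members 1 was (Tnfrsf1a). Since the same comparison chose the genes, nothing is read from these counts. Of the 9, 7 were higher in occluded rats and 2 lower, with a median difference of 0.05, against 0.00076 over all genes. The median standard deviation of the members was 0.10 within the occlusion group and 0.15 within controls, close to the 0.11 and 0.15 found over all genes.

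**Figure D1:**
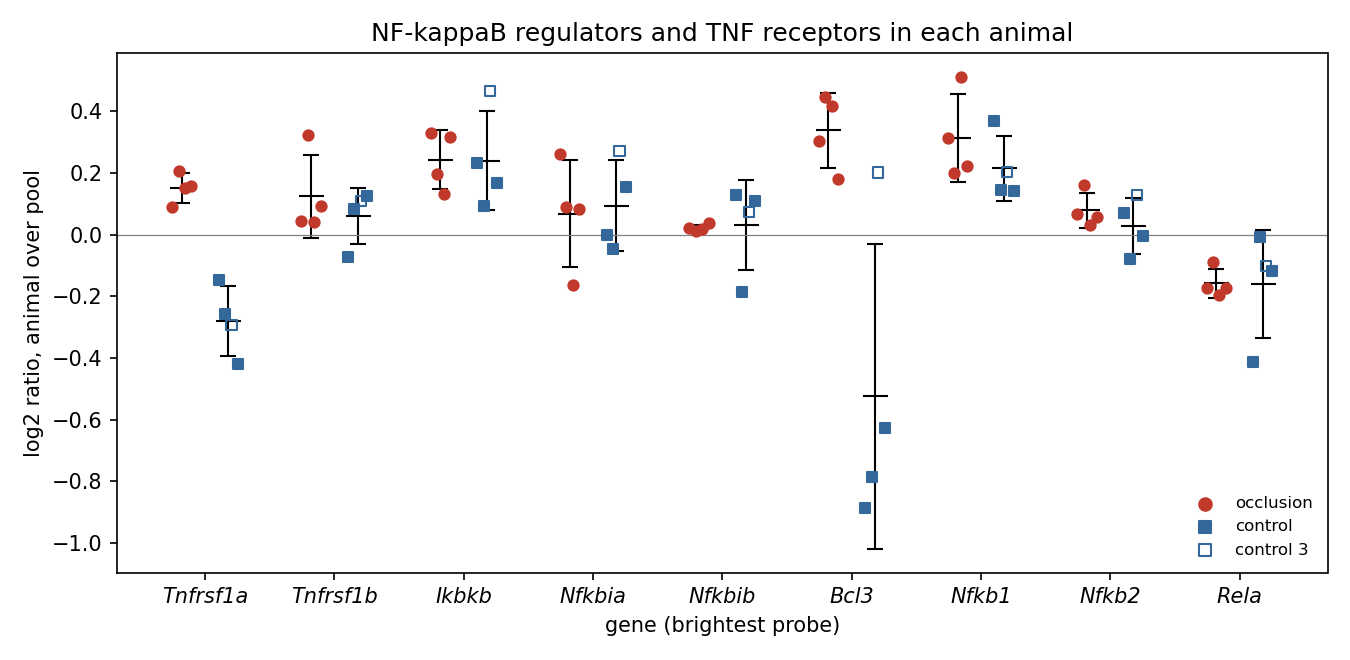
Log2 ratio of each rat to the pool (vertical axis) for the brightest probe of each of the 9 measured genes (horizontal axis), with occlusion rats as red circles on the left of each gene and control rats as blue squares on the right, control 3 open. Black bars give the mean and SD of 4 rats. Occlusion and control do not overlap for Tnfrsf1a, and for Bcl3 they overlap only through control 3.

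Of the receptors, Tnfrsf1a encodes the type 1 TNF receptor, the widely expressed receptor that carries a death domain and signals to NF-kappaB. Its probe (rn3 chr4:162430128-162430187) read 0.09, 0.21, 0.15 and 0.16 in occlusion rats 1 to 4, against -0.15, -0.26, -0.29 and -0.42 in control rats 1 to 4. Every occluded rat read higher than every control rat, so the groups did not overlap. The difference was 0.43 (SE 0.07), a 1.35-fold higher ratio in occlusion, with means of 0.15 ± 0.05 in occlusion and -0.28 ± 0.11 in controls (SD, n = 4 each). Its absolute difference lay at percentile 97.9 of all genes tested. It was 0.50 on slide 1 and 0.36 on slide 2, and 0.43 without control 3.

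Background-subtracted Cy5 signals of Tnfrsf1a, before normalisation, pointed the same way: 1071, 1206, 897 and 883 in occlusion rats, against 754, 725, 736 and 743 in controls. The lowest occlusion rat was brighter than the brightest control in this channel. Since Cy5 is the numerator of the same ratio and the Cy3 signal of the pool varied little (483 to 564), this is no separate support. Tnfrsf1b encodes the type 2 TNF receptor, found in the brain mainly on microglia and blood vessels. Its probe (rn3 chr5:163676740-163676799) was dim, with Cy5 signals between 112 and 205, and read 0.04, 0.32, 0.04 and 0.09 in occlusion against -0.07, 0.08, 0.11 and 0.13 in controls. The groups overlapped, and the difference was 0.06 (SE 0.09). Without occlusion rat 2, the highest of the 8, the Tnfrsf1b difference was -0.0029.

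Bcl3 encodes an atypical IkappaB protein that acts in the nucleus, where it binds dimers of the NF-kappaB1 and NF-kappaB2 products and can serve as their co-activator or co-repressor. Its probe (rn3 chr1:79200943-79201002) read 0.30, 0.45, 0.42 and 0.18 in occlusion rats, against -0.89, -0.79, 0.20 and -0.63 in control rats. The occluded rats lay close together, whereas 3 control rats lay far below them and control 3 lay just above occlusion rat 4. The means were 0.34 ± 0.12 in occlusion and -0.52 ± 0.50 in controls (SD, n = 4 each), a difference of 0.86 (SE 0.22), or 1.82-fold.

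The size of the Bcl3 difference turned on control 3. Without that rat it was 1.10 (SE 0.09), or 2.15-fold. Bcl3 was then the 1 gene of 26981 that passed an adjusted p of 0.05 (limma, Benjamini-Hochberg). This result was already known when the genes were chosen, and it left out the control that overlapped occlusion. It is therefore no test of Bcl3. With any 1 of the other 7 rats left out, no gene passed. On slide 1, which holds control 3, the difference was 0.59 (SE 0.30), and on slide 2 it was 1.14 (SE 0.12). In the background-subtracted Cy5 channel, Bcl3 signals were 2032, 2383, 1751 and 1429 in occlusion rats, against 638, 799, 1974 and 1055 in controls. Control 3 was thus also high before normalisation. Leaving out any 1 of the other 7 rats gave between 0.74 and 0.91. Without control 3 all 9 members were higher in occlusion, while the median difference over all genes was -0.00086. Beside Tnfrsf1a and Bcl3, the differences were 0.08 (SE 0.09) for Tnfrsf1b, 0.08 (SE 0.08) for Ikbkb and 0.0047 (SE 0.09) for Nfkbib. They were 0.09 (SE 0.10) for Nfkb1, 0.08 (SE 0.07) for Nfkb2, 0.02 (SE 0.10) for Rela and 0.03 (SE 0.11) for Nfkbia. Since the same comparison chose the genes, nothing is read from the count of 9.

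**Figure D2:**
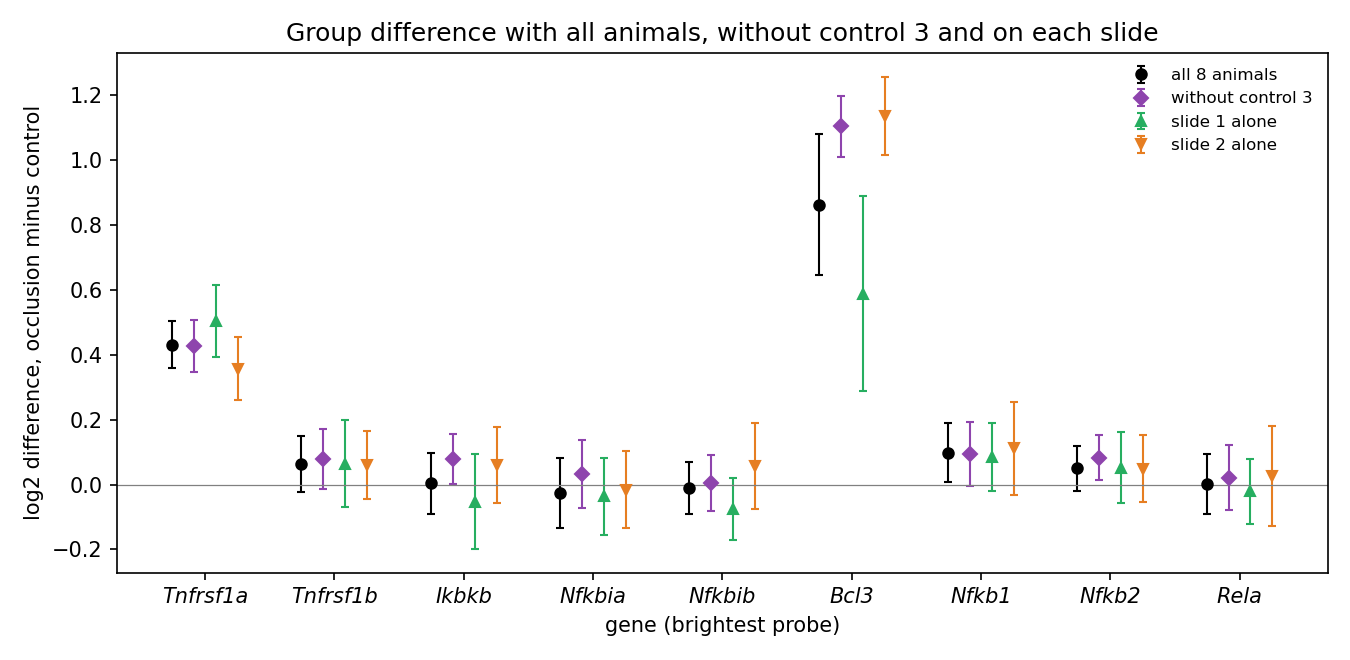
Log2 difference, occlusion minus control (vertical axis), of each measured gene with all 8 rats, without control 3, and within each slide; bars are standard errors of the fit. Tnfrsf1a and Bcl3 lie above 0 in all 4, Bcl3 between 0.59 and 1.14, and the other genes stay between -0.08 and 0.11.

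Ikbkb encodes the catalytic kinase subunit that phosphorylates IkappaB proteins in response to TNF. Its probe (rn3 chr16:73858287-73858346) read 0.33, 0.20, 0.13 and 0.32 in occlusion and 0.23, 0.09, 0.47 and 0.17 in controls, with control 3 highest and overlapping groups. The difference was 0.0036 (SE 0.09). All 8 rats lay above the pool for this probe, although the pool was made of the same 8 animals, so zero on its scale is not the animals' mean.

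Nfkbia encodes IkappaB alpha, the inhibitor that is degraded and then resynthesised as an early NF-kappaB target. Its brighter probe (rn3 chr6:75733564-75733623) read 0.26, 0.09, -0.16 and 0.08 in occlusion, against -0.00, -0.05, 0.27 and 0.15 in controls. The highest value was that of control 3 and the lowest that of occlusion rat 3, and the groups overlapped throughout. The difference was -0.03 (SE 0.11). The dimmer probe (rn3 chr6:75733342-75733401) gave 0.07, -0.10, 0.01 and -0.04 in occlusion and -0.09, -0.25, 0.29 and 0.10 in controls, again a difference of -0.03 (SE 0.11). Both Nfkbia probes were highest in control 3, and without that rat the difference of the brighter probe was 0.03.

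Nfkbib encodes IkappaB beta, an inhibitor that is degraded more slowly. Its probe (rn3 chr1:83944311-83944370) read 0.02, 0.01, 0.02 and 0.04 in occlusion and 0.13, -0.19, 0.07 and 0.11 in controls. Occluded rats were nearly identical and lay inside the range of controls, of which control 2 was low. The difference was -0.0097 (SE 0.08).

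Among the subunits, Nfkb1 encodes the precursor of the DNA-binding p50 protein. Its brighter probe (rn3 chr2:233077860-233077919) is printed 10 times on each array, which gives a measure of error between spots. The SD between spots of 1 array was 0.03 to 0.11. Technical error between hybridisations was not measured, since each rat was hybridised once. It read 0.31, 0.20, 0.51 and 0.22 in occlusion rats, against 0.37, 0.14, 0.20 and 0.14 in controls. The groups overlapped, with occlusion rat 3 highest, and the difference was 0.10 (SE 0.09).

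The other Nfkb1 probe (rn3 chr2:233078444-233078503) read 0.08, -0.18, -0.03 and -0.03 in occlusion and -0.14, -0.03, 0.27 and 0.00 in controls. It differed by -0.07 (SE 0.10), opposite in sign to the first. Occlusion rat 3, which was highest by the first probe, was not high by this one, so no direction can be given for Nfkb1.

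Nfkb2 encodes the precursor of the corresponding subunit of the non-canonical branch. Its brighter probe (rn3 chr1:251789719-251789911) read 0.07, 0.16, 0.03 and 0.06 in occlusion and 0.07, -0.08, 0.13 and -0.00 in controls. The spread was small in both groups, which overlapped, and the difference was 0.05 (SE 0.07). The dim probe (rn3 chr1:251785943-251786267) was well above background on 5 of 8 arrays and differed by 0.01 (SE 0.08).

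Rela encodes the subunit with the main transactivation domain of the canonical dimer. Its brighter probe (rn3 chr1:208425802-208425861) read -0.18, -0.09, -0.20 and -0.17 in occlusion and -0.41, -0.01, -0.10 and -0.12 in controls, with control 1 lowest and the groups overlapping. The difference was 0.0022 (SE 0.09). The dim Rela probe (rn3 chr1:208416979-208417035), also well above background on 5 of 8 arrays, differed by 0.02 (SE 0.06). Whether a probe lies in a coding exon or an untranslated region was not determined, since an rn3 annotation was not used here.

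The probe described on the array as similar to Relb lies on a stretch of chromosome 1 without a fixed place in rn3. It was dim, with Cy5 signals between 60.4 and 98.9, and read -0.02, -0.13, -0.02 and -0.10 in occlusion against -0.02, -0.01, 0.29 and -0.03 in controls. Control 3 was the highest animal and the groups overlapped. The difference was -0.12 (SE 0.09), and -0.05 without control 3.

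**Figure D3:**
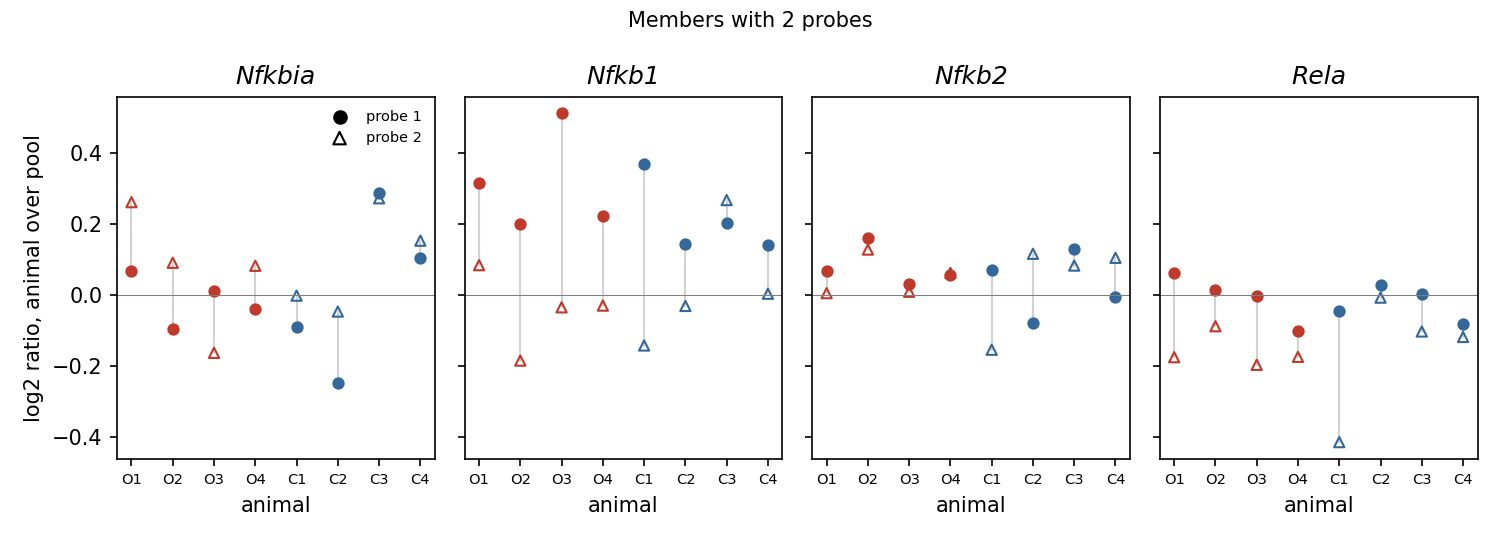
Log2 ratio to the pool (vertical axis) in occlusion rats 1 to 4 (O1 to O4, red) and control rats 1 to 4 (C1 to C4, blue) for the 4 genes with 2 probes; filled circles are probe 1, open triangles probe 2, and grey lines join the probes of 1 rat. The Nfkb1 probes are far apart in occlusion rat 3 (0.51 and -0.03), and both Nfkbia probes are highest in control 3.

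The markers of 1 other tissue moved with the groups. Of 10 listed markers of choroid plexus and ependyma, the epithelium lining the ventricles next to the medial thalamus, 8 were measured. Their mean was -0.08, -0.21, 0.61 and -0.43 in occlusion rats, against -0.73, -0.75, -1.28 and -0.87 in control rats, and the groups did not overlap. All 8 were higher in occlusion, by 0.49 (Folr1, SE 0.21) to 1.52 (Ttr, SE 0.91). Ttr varied widely within occlusion (SD 2.18), and 3 of the 8 genes had groups that did not overlap, against 2.46% of all genes. In limma 6 of the 8 had an unadjusted p under 0.05 and 0 passed an adjusted p of 0.05. In whole tissue, fewer cells of a type and less RNA per cell cannot be told apart. Occlusion rat 4 was the lowest of the occluded rats for both this list and Bcl3. Among controls, the list was lowest and Bcl3 highest in control 3. The part of this tissue in the values of Tnfrsf1a and Bcl3 was not tested.

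Markers of cells that carry TNF receptors or respond to TNF, and those of red blood cells, overlapped between the groups. Microglia and macrophage markers (13 of 14 measured) averaged -0.09 to 0.20 in occlusion and -0.06 to 0.06 in controls. Endothelial markers (11 of 11) averaged -0.17 to 0.05 in occlusion and -0.15 to -0.09 in controls. Neutrophil markers (5 of 9) averaged -0.02 to 0.17 in occlusion and -0.33 to 0.13 in controls. Astrocyte markers (9 of 9) averaged -0.01 to 0.15 in occlusion and -0.15 to 0.05 in controls, and red blood cell markers (4 of 7) -0.97 to 0.20 in occlusion and -0.12 to 0.53 in controls.

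**Figure D4:**
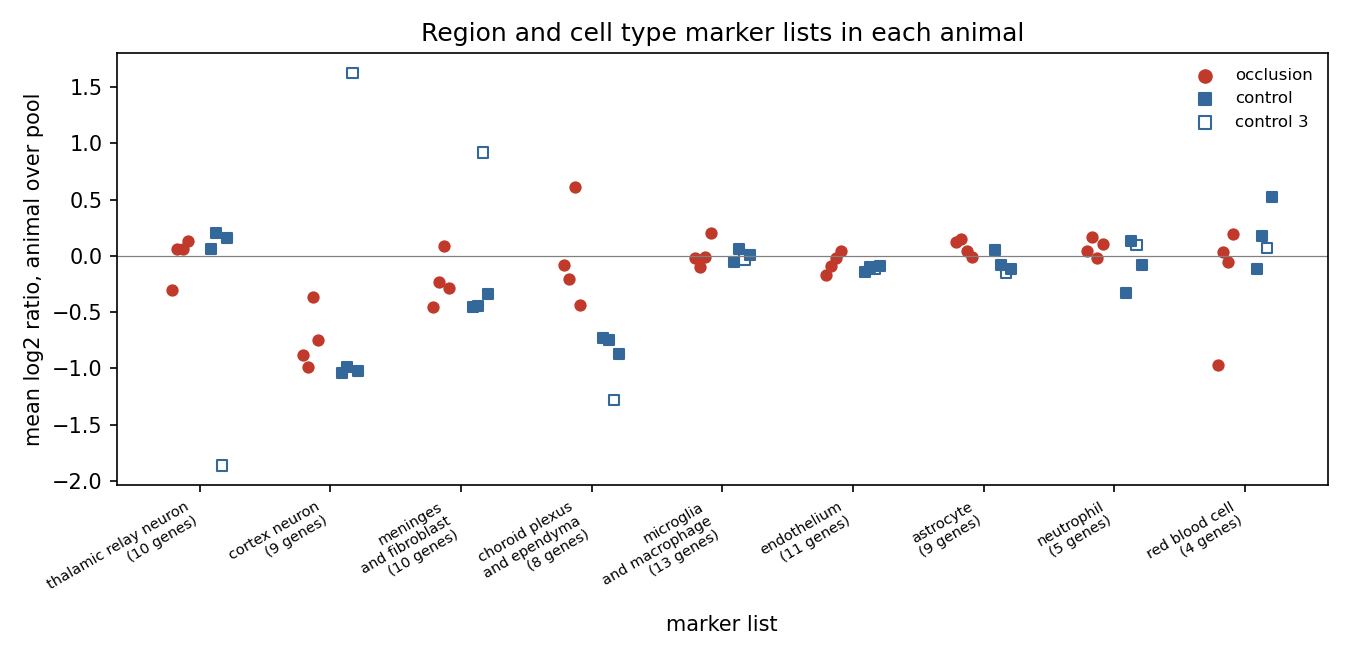
Mean log2 ratio to the pool (vertical axis) of each region or cell type marker list (horizontal axis, with the number of genes measured) in each rat, occlusion as red circles on the left and control as blue squares on the right, control 3 open. Control 3 stands apart for thalamic, cortical and meningeal markers (-1.86, 1.63 and 0.92), and the groups are separate for choroid plexus and ependyma.

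The rest of the pathway was described through 8 lists of genes grouped by role, 131 genes in all, of which 118 were on the array and 98 tested. In these 98, 0 passed an adjusted p of 0.05 in either direction (limma, Benjamini-Hochberg), 4 (4.08%) had an unadjusted p under 0.05, against 3.12% of all genes, and 2 (2.04%) had groups that did not overlap, against 2.46% of all genes. Of the 98 genes, 62 were higher in occlusion and 36 lower, with a median difference of 0.02. Over all genes tested, 50.2% were higher. The split of the list varied with the setting. Of 98, 50 were higher with the scanner software's log ratios or the deposited value table, and 49 in the Cy5 channel alone. On slide 2 alone it was 51 of 96. Without background subtraction or with median centring 56 of 98 were higher, and 63 of 98 with the mean over probes. The median over all genes moved too: with the scanner software's log ratios it was -0.017, against 0.0026 for the list. Without control 3, 25 of the 98 differences had the other sign. The values that follow are therefore of genes that did not pass the test.

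Among TNF superfamily ligands, 10 of 18 were tested, with 7 higher, 3 lower and a median of 0.02. Tnf itself, Lta and Tnfsf10 were well above background on 0 of 8 arrays, so the ligand of both receptors was not measurable here. Tnfsf14 (LIGHT) differed by 0.21 and Ltb (lymphotoxin beta) by 0.14, and without control 3 by 0.31 and 0.02. Tnfsf15 differed by -0.26 and Tnfsf13 (APRIL) by -0.19. In both genes control 3 was the high animal, at 1.08 and 0.91. Without it the sign turned, to 0.06 for Tnfsf15 and 0.08 for Tnfsf13.

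Of the other members of the TNF receptor superfamily, 17 of 24 were tested, with 13 higher, 4 lower and a median of 0.07. Ngfr, the low-affinity neurotrophin receptor, differed by 0.11 (SE 0.07), and Tnfrsf11a (RANK) by 0.09 (SE 0.06), or 0.05 without control 3. Tnfrsf25, a death-domain receptor, differed by -0.30 (SE 0.26), with control 3 at 0.94, and by -0.01 without that rat. Tnfrsf19 differed by -0.03. Fas, named after its values were seen, had the largest difference of the list (0.68, SE 0.57), but its mean in controls was -0.68 ± 1.38 against 0.01 ± 0.03 in occlusion (SD, n = 4 each).

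Among the adaptors that join the receptors to the kinases, 13 of 14 were tested, with 9 higher, 4 lower and a median of 0.02. Birc2, a ubiquitin ligase of the TNF receptor complex, differed by 0.19 (SE 0.08), with 3 controls measured. Ripk1, the receptor-interacting kinase, differed by 0.14 (SE 0.11). Traf6, an adaptor of Toll-like and IL-1 receptors, differed by -0.09 and Cflar, an inhibitor of caspase-8 activation, by -0.05. Without control 3 these were -0.03 and -0.0058.

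In the IkappaB kinase complex and its upstream kinases, 10 of 11 were tested, with 5 higher, 5 lower and a median of -0.0058. Map3k8 (Tpl2), held inactive by the Nfkb1 precursor, had the largest value of this list, 0.30 (SE 0.18), but control 1 alone was low, at -0.66. Ikbkg (NEMO), the regulatory subunit, differed by 0.05, Tab2 by -0.14 and Map3k3 by -0.09, and without control 3 Ikbkg by 0.02 and Map3k3 by -0.05. The 3 tested subunits and IkappaB proteins outside the main set were all lower in occlusion, by -0.10 for Nfkbie (IkappaB epsilon), -0.03 for Rel and -0.03 for Nfkbiz, each within its SE of 0. Without control 3 Nfkbie differed by -0.03, and the sign turned for Rel (0.0096) and Nfkbiz (0.16).

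Of Toll-like and IL-1 receptor components, 10 of 13 were tested, with 7 higher, 3 lower and a median of 0.07. Tlr2, a receptor for bacterial lipoproteins, differed by 0.23 (SE 0.10), or 0.15 without control 3, and Tlr4, the receptor for endotoxin, by 0.12 (SE 0.07). Irak4, the first kinase below these receptors, read -0.04, -0.00, -0.01 and -0.04 in occlusion against 0.18, 0.03, 0.08 and 0.14 in controls. Its groups did not overlap, with a difference of -0.13 (SE 0.06), and Irak1 differed by -0.06, or 0.02 without control 3.

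Ubiquitin-editing and feedback inhibitors were split evenly, with 14 of 19 tested, 7 higher, 7 lower and a median of -0.01. Tnip2 differed by 0.10 and Otud7b by 0.03. Nkiras1, which binds IkappaB beta, differed by -0.25 (SE 0.24) with control 3 at 0.88, and by 0.02 without that rat, so its sign turned. Tnip1 differed by -0.07 (SE 0.07).

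Of 28 listed NF-kappaB target genes, 21 were tested, with 14 higher, 7 lower and a median of 0.07. Il6 and Nos2 were well above background on 0 of 8 arrays. All 4 genes with an unadjusted p under 0.05 in limma among the 98 were among these 21. Csf1, Lcn2 and Vcam1 (named after its values were seen) were higher in occlusion, and Gadd45b was lower. Over all genes the share was 3.12%. None of the 4 passed the adjusted threshold, and the lists were chosen with earlier results of these data known, so nothing is read from this count.

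Csf1, the growth factor of microglia, read 0.50, -0.01, 0.15 and 0.20 in occlusion against 0.02, -0.36, -0.27 and -0.10 in controls, overlapping through occlusion rat 2. Its difference was 0.39 (SE 0.13, adjusted p = 0.974 in limma). Lcn2, a secreted iron-carrier-binding protein, read -0.07, 0.12, 0.01 and -0.07 in occlusion against -0.15, -0.31, -0.10 and -0.40 in controls. The Lcn2 groups did not overlap, and the difference was 0.23 (SE 0.09). Vcam1, an endothelial adhesion molecule, differed by 0.29 (SE 0.11). Gadd45b, a stress-response gene, was the lowest of the list, at -0.33 (SE 0.13), with control 3 highest at 0.64, and -0.20 without that rat. Junb, an immediate-early gene, differed by -0.27 (SE 0.14).

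**Figure D5:**
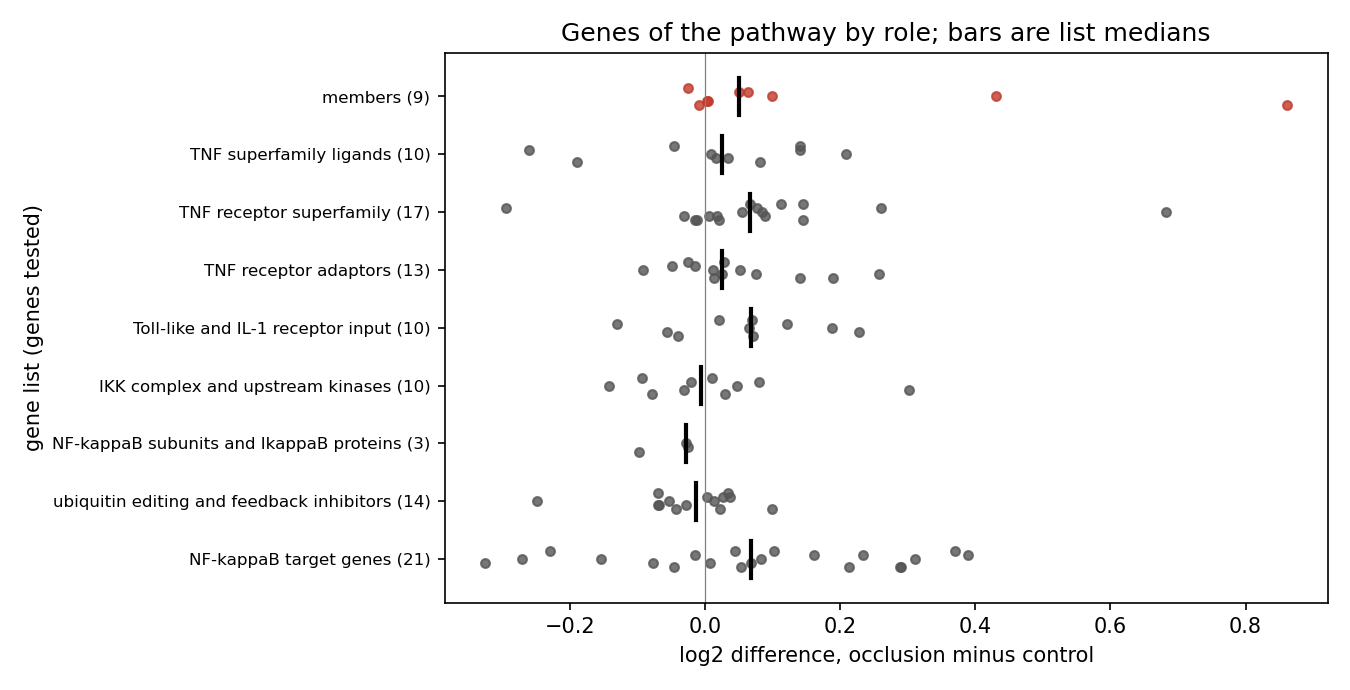
Log2 difference, occlusion minus control (horizontal axis), of every tested gene in each list (vertical axis, number of genes in brackets); grey points are genes of the lists, red points the 9 main genes, and black bars list medians. Medians lie between -0.03 and 0.07, and Bcl3 (0.86) and Fas (0.68) are the points farthest from 0.

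The genes whose pattern over the 8 rats was most like that of Tnfrsf1a, among 13068 named genes compared, were Lrch3 (Pearson r = 0.93), Idh2 (0.92) and Tmod3 (0.90), over 8 arrays that share 1 pool. Idh2, the mitochondrial isocitrate dehydrogenase, differed by 0.31 and Tmod3, a cap of actin filaments, by 0.42, close to the difference of Tnfrsf1a, whereas Lrch3 differed by 0.09. The genes most like Bcl3 were Zfp52 (r = 0.97), Exoc3l2 (0.96) and Mxra8 (0.94). All 3 had control 3 near the occluded rats and the other controls lower, but their differences were 0.20, 0.20 and 0.22, well below that of Bcl3. These correlations are descriptions of the most alike of many genes and carry no test.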

How the data were processed

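Spots were quantified with Agilent Feature Extraction 9.5.1.1, per the file headers. The scanner output deposited for each array gives linear intensity in Cy5 and Cy3, and a log10 ratio of Cy5 over Cy3 from the same program. In the deposited value table these log10 ratios recur: all 45018 spots matched within 1% on every array, which settled its scale and direction. Each column's median was 0, with 7346 to 9980 values exactly 0, so its centring is unknown.

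Intensities were corrected by normexp (offset 50) and loess within each array, and outlier and control spots were left out. Probes were kept if their Cy5 signal was well above background on 4 or more of 8 arrays, with 2 values per group, and the brightest probe stood for a gene. Probes were named through a RefSeq table (GRCr8, names only): 10735 by accession, 1222 by gene ID, 5501 by symbol and 3718 by synonym, while 19836 kept the array's name. The groups were compared with limma 3.58.1 (R 4.3.3, two-sided, Benjamini-Hochberg over 26981 genes, threshold 0.05). The labels give 1 array per rat, and 4 rats per group limit the precision.

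The members and all lists were chosen with earlier results of these data known. All 10 members are named, then in each pathway list up to 2 genes higher and 2 lower with the smallest unadjusted p, and the 3 genes most alike Tnfrsf1a and Bcl3. Vcam1, Fas, Nfkbiz, Tnf, Lta, Tnfsf10, Il6, Nos2, Folr1 and Ttr fall outside this rule and were picked with their values known. Alternatives changed the background correction, the normalisation, the source of values (value table, Cy5 alone), the dim-probe filter, the choice of probe, the array weights, and slide or replicate number as a block, and left out each rat or slide. Values of the other pathway genes without control 3 were added after the data were seen. Figures were drawn with matplotlib 3.10.9.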

Additional observations from a re-analysis of the deposited data

Results flagged for a closer look

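Each group of 4 rats was checked for a rat far from the others, for the 9 measured genes and the 9 marker lists. Of 36 checks, 4 passed Dixon's 95% critical value, and chance flags about 1 in 20 groups. Nfkbib was -0.19 in control 2, against 0.07 to 0.13 in the other controls. In control 3 the mean of the thalamic relay neuron markers was -1.86, against 0.06 to 0.20 in the other controls. Its cortex neuron marker mean was 1.63, against -1.04 to -0.99, and its mean of meninges and fibroblast markers was 0.92, against -0.46 to -0.34.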

How the results depend on the processing

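No gene passed the adjusted threshold under any of the alternatives that kept all 8 rats or used 1 slide. Leaving out 1 rat at a time gave 0 to 1 genes passing over all genes and 0 to 1 among the members, the 1 being Bcl3 without control 3, and 0 among the other pathway genes each time. The number at an unadjusted p under 0.05 was 282 with median centring (222 higher, 60 lower), 952 with the scanner software's log ratios (367 higher, 585 lower), 1360 with array weights, 489 without occlusion 1 and 1440 without control 1, against 842 (494 higher, 348 lower). The cause was not tested. With the replicate block, 0 genes passed. Deviations of same-numbered rats from their group means had correlations of -0.13, 0.14, 0.03 and 0.08. Rats with the same number lay on different slides, so these correlations cannot decide whether the numbers pair the rats. Tnfrsf1a ranged over 0.36 to 0.50 and Bcl3 over 0.59 to 1.14, above 0 in each of the 16 alternatives that moved their value. Another 6 could not move it by construction (Aquantile, both dim-probe filters, the mean over 1 probe, and slide or replicate number as a block). Leaving out a rat or using 1 slide could not turn the sign of Tnfrsf1a either, since every occluded rat read higher than every control. For Bcl3 the same held within each slide. The kept signs in those alternatives are therefore no further support. Nfkb2 stayed above 0 in 18 of 18 that moved it. Tnfrsf1b differed by 0.23 in Cy5 alone, and Nfkb1 by -0.07 with its other probe. Signs of the small differences turned in some alternatives: of those that moved the value, Ikbkb kept its sign in 9 of 16, Tnfrsf1b in 15 of 16, Nfkbia in 14 of 18, Nfkbib in 10 of 16, Nfkb1 in 17 of 18 and Rela in 10 of 18. Cy5 signals were low for the dim probes of Rela (36 to 57), Nfkb2 (35 to 87) and Tnfrsf1b (112 to 205), which limits their values. Over all spots outside controls, the median Cy5 signal over background was 3.65 to 4.67 per array.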

Other observations

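Exoc3l2, one of the genes most like Bcl3 over the 8 rats, has its probe 275 kb from that of Bcl3 on chromosome 1 of rn3 (start 78925978). Among the 18 other named and tested genes with a probe within 300 kb of the Bcl3 probe, 8 were higher in occlusion and 10 lower, with a median difference of -0.00. Their differences ran from -0.14 (Clptm1) to 0.41 (Apoc1, an apolipoprotein), and Apoe, which lies next to Apoc1, differed by 0.01. This stretch was examined after its values were seen.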
